A study of Arabidopsis thaliana with 48 samples.

Results

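Roots of *met1-7* seedlings were compared with roots of wild-type Col-0 seedlings, both grown in spaceflight (FT) on the International Space Station. The comparison rests on 8 libraries, the 4 *met1-7* and the 4 Col-0 root libraries in FT, out of 24 root libraries and 48 libraries in the series. They were chosen by their labels alone. The plants were 11-day-old *Arabidopsis thaliana* seedlings of the Col-0 background, grown on sealed agar-like plates under constant light in the Veggie plant growth unit and fixed in RNAlater before leaves and roots were dissected. *met1-7* carries a mutation in *MET1*, and the Col-0 plants carry no mutation or transgene by the labels. By the study's methods 3 plants were pooled from each plate and a replicate combined a pair of plates, except that 1 of the 4 *met1-7* FT replicates came from a single plate, and which of the 4 it is could not be read from the labels. Ground control (GC) plants of the same genotypes were grown in a Veggie unit on Earth, in a chamber that copied the station's temperature, CO2 and light, with a delay that the labels and the methods give differently, and they are set beside the flight values below. The third genotype of the series, *elp2-5*, entered the fit but not the comparison. The generation of the *met1-7* plants, and whether they all came from a single parent, were not given in the sources used here.

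MET1 is the plant relative of the mammalian maintenance methyltransferase DNMT1. It copies cytosine methylation at CG sites onto the new strand after DNA replication, with the help of the VIM proteins, which bind CG sites methylated on a single strand, and of the chromatin remodeller DDM1. In *Arabidopsis*, CG methylation lies over transposable elements and repeats, where it goes with silencing, and in the bodies of many active genes. Loss of MET1 is known to release some transposons and genes that sit in or beside repeats, and a well-known example is *FWA*, which is expressed from a demethylated promoter and delays flowering.

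The windows upstream of 4 genes on which the results below turn are printed first, to show where CG sites, the substrate of MET1, lie in them. *FWA* encodes a homeodomain transcription factor, *QQS* a small orphan protein that affects starch content, *SDC* an F-box protein and *ROS1* the main DNA demethylase of vegetative tissue, an enzyme that cuts out 5-methylcytosine. Each sequence is the 250 bases before the annotated start in RefSeq, build TAIR10.1, read 5′ to 3′ on the strand of the gene, and capitals mark CG dinucleotides. The windows are chr4:13038110-13038359 on the plus strand for *FWA*, chr3:12348797-12349046 on the plus strand for *QQS*, chr2:7681912-7682161 on the plus strand for *SDC* and chr2:15314808-15315057 on the minus strand for *ROS1*.
FWA: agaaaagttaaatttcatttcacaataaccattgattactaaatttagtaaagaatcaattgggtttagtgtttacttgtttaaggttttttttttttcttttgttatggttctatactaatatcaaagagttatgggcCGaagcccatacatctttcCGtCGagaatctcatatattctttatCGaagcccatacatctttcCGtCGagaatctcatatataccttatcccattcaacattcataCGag
QQS: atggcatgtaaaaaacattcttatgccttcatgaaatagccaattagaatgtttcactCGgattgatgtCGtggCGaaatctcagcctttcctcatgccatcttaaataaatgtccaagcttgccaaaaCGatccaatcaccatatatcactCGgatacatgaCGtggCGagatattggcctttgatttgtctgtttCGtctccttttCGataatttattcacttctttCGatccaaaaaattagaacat
SDC: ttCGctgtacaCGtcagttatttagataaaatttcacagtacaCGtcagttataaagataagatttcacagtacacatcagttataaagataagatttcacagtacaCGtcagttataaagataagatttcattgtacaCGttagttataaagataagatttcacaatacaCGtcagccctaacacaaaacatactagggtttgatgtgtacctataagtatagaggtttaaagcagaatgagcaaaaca
ROS1: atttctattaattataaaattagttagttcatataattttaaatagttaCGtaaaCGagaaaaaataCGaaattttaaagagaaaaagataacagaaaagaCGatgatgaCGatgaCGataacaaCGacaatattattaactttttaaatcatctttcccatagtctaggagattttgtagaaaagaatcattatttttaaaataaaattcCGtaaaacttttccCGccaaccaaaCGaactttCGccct

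The *FWA* window held 7 CG, and 31.4% of the 37880 RefSeq promoters held at least as many. It also held an exact direct repeat of 38 bases with 3 CG, its copies starting at positions 140 and 185, and 0.222% of promoters held a repeat as long. The *SDC* window held 6 CG, a count reached by 41.2% of promoters, and a direct repeat of 38 bases starting at positions 31 and 95. The *QQS* window held 10 CG (13.2% of promoters reach this) and the *ROS1* window 11 (9.78%), and their longest direct repeats were 10 and 9 bases. No methylation values were analysed here, so these counts describe the letters only.

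*MET1* itself had 19.6, 18.0, 18.0 and 19.2 FPKM in the 4 Col-0 libraries and 13.5, 13.3, 16.6 and 17.6 FPKM in the 4 *met1-7* libraries, where FPKM are fragments scaled by gene length and by the mapped total of a library. All 4 *met1-7* values lay below all 4 Col-0 values. The fitted difference was -0.29 on the log2 scale (SE 0.13, limma, adjusted p = 0.230), so *MET1* did not pass the test. A gene-level value sums fragments over all exons and does not show whether the transcripts were full length, so it does not check the labels. *FWA*, whose silencing in *Arabidopsis* depends on CG methylation, was near 0 in all 4 Col-0 libraries and above 30 FPKM in all 4 *met1-7* libraries, as its values below show.

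FPKM hold no fragment counts, so the depth of the libraries is unknown. Summed FPKM of the 8 libraries ran from 836103 to 860993. A relative depth, estimated from 201 genes that only a few libraries detected and at a common low value, was 0.867 to 1.15 in Col-0 and 0.831 to 1.07 in *met1-7*. Libraries of the same genotype correlated at 0.968 to 0.977 and libraries of different genotypes at 0.940 to 0.955 (Pearson, log2(FPKM + 0.5) over the genes tested). The 12 root markers (regulators and Casparian strip genes such as *CASP1*) summed to 665 to 762 FPKM in Col-0 and 708 to 814 FPKM in *met1-7*, and 0 of the 12 were called. The 15 leaf and photosynthesis markers summed to 771 to 1295 FPKM and 807 to 1446 FPKM, with 0 called, so transcripts typical of green tissue were present in these root libraries in both genotypes. In whole roots, fewer cells of a type and less RNA per cell cannot be told apart.

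Of 33977 genes in the root table, 21000 reached 1 FPKM in at least 4 of the 24 root libraries and were tested, on log2(FPKM + 0.5), with limma. Called genes had a fitted change of at least 2-fold and an adjusted p (Benjamini-Hochberg) below 0.05. In *met1-7* 223 genes were raised (1.06% of the genes tested) and 79 were lowered (0.376%). The fitted scale understates the change of genes with low FPKM, because 0.5 is added to both groups. The median difference over all genes tested was -0.0034, and the 8 libraries gave 2729 genes (13% of those tested) whose groups of 4 did not overlap, 1318 of them higher and 1411 lower in *met1-7*. Among the called genes, 201 of 223 raised and 76 of 79 lowered genes did not overlap. A further 839 genes had an adjusted p under 0.05 with a change under 2-fold, 338 higher and 501 lower in *met1-7*. Another 261 genes had a fitted change of at least 2-fold without being called, and in 217 of these the libraries of the genotypes overlapped.

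Raised genes moved further than lowered genes. The 120 raised genes that were above 0 FPKM in some Col-0 library had a median fitted change of 2.90 on the log2 scale (range 1.02 to 8.16), and 78 of them changed at least 4-fold. In 82 of the 120 the Col-0 mean was under 1 FPKM, and only 17 of the 223 raised genes had a Col-0 mean of 5 FPKM or more. The median change of the lowered genes was -1.37 (range -3.30 to -1.01), with 16 at least 4-fold. Of the raised genes above 0 in Col-0, 21 had a mean of at least 50 FPKM in *met1-7*, and 0 of the lowered genes had such a mean in Col-0.

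**Figure D1:**
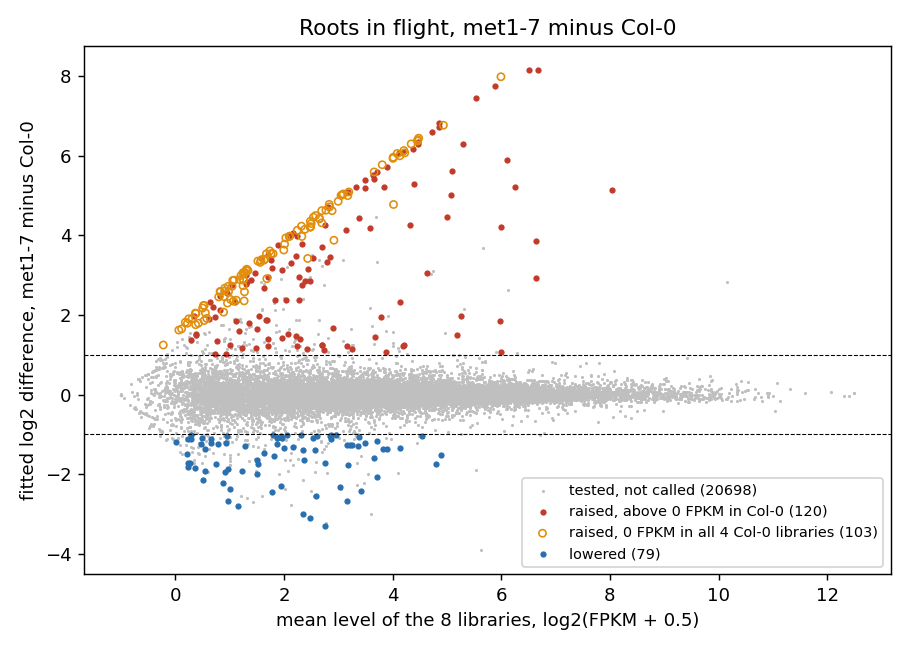
Fitted log2 difference, *met1-7* minus Col-0 roots in FT, against the mean level of the 8 libraries as log2(FPKM + 0.5), with 1 point per gene tested. Filled coloured points are raised genes above 0 FPKM in Col-0 (120) and lowered genes (79), open circles are raised genes at 0 FPKM in all 4 Col-0 libraries (103), and the raised points reach 8.16 while the lowered points end at -3.30.

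The 8 largest rises from a Col-0 level above 0 were almost all in genes with no described function. *AT2G03965* had 0.10, 0.06, 0.15 and 0.06 FPKM in Col-0 and 193, 284, 110 and 134 FPKM in *met1-7*, a fitted difference of 8.16 (SE 0.21, adjusted p = 1.74e-18). *AT3G01345* had 0.17, 0.08, 0.66 and 0.08 FPKM in Col-0 and 179, 204, 196 and 233 FPKM in *met1-7* (8.15, SE 0.93, adjusted p = 7.14e-06). Both are annotated as uncharacterized proteins, and in neither did any *met1-7* library come near the Col-0 range. *AT2G03965* overlaps the raised non-coding locus *AT2G04655* on the opposite strand, and since the strand setting of the counting is not stated, fragments of the pair cannot be told apart.

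*AT1G23915*, also uncharacterized, had 0.08, 0, 0 and 0.09 FPKM in Col-0 and 116, 132, 119 and 98.1 FPKM in *met1-7* (7.75, SE 0.14, adjusted p = 6.46e-21). *AT1G36085*, which RefSeq names a mutator-like transposase, had 0.07, 0, 0 and 0 FPKM in Col-0 and 100, 92.1, 93.2 and 79.1 FPKM in *met1-7* (7.46, SE 0.11, adjusted p = 2.60e-22). Mutator-like transposases are encoded by cut-and-paste DNA transposons. *AT3G44265*, a beta-galactosidase-like gene, went from a mean of 0.010 ± 0.020 FPKM to 57.1 ± 4.1 FPKM (SD, n = 4 each), and the remaining 3 of the 8, *AT5G41660*, *AT1G27565* and the non-coding *AT4G05205*, from 0.033 to 56.9, from 0.045 to 51.9 and from 0.038 to 43.0 FPKM. In each of the 8 genes every *met1-7* library exceeded every Col-0 library more than 100-fold or was set against a Col-0 value of 0.

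Nearly as many raised genes had no signal at all in wild-type flight roots. Of the 223 raised genes, 103 (46.2%) were listed at 0 FPKM in all 4 Col-0 libraries, so no ratio of FPKM can be given for them. A fitted difference, where printed for such a gene, depends on the 0.5 FPKM added. That of *AT1G07333* was 4.82, 2.74 and 1.97 with 0.1, 0.5 and 1 FPKM added. Their *met1-7* means ran from 0.718 to 126 FPKM with a median of 5.40, and 37 had a mean of at least 10 FPKM. In 89 of the 103 all 4 *met1-7* libraries were above 0, and in the other 14 it was 3 of 4. Because a gene at 0 in Col-0 passed the filter only through other libraries, this count describes the set and supports nothing by itself.

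The highest was *AT5G03090*, whose RefSeq product is a Mto 1 responding down protein, with 0 FPKM in all Col-0 libraries and 117, 128, 129 and 132 FPKM in *met1-7* (limma, adjusted p = 2.63e-09). It lay within a narrow band in *met1-7*, with an SD of 6.55 around a mean of 126 FPKM. *AT3G05395*, a non-coding RNA that overlaps the raised *AT3G05385* on the opposite strand, had 108, 32.3, 40.8 and 59.5 FPKM, a wider spread. *AT1G47265* (uncharacterized) had 40.3, 56.4, 42.2 and 35.8 FPKM, and *AT3G30165* (a zinc ion-binding protein) 37.6, 31.8, 52.3 and 36.5 FPKM. The other 4 of the 8 highest were 3 non-coding loci, *AT2G04735* with a mean of 43.1, *AT4G05275* with 43.0 and *AT2G05695* with 36.4 FPKM, and *AT5G29050*, a protein of unknown function, with 36.0 FPKM.

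**Figure D2:**
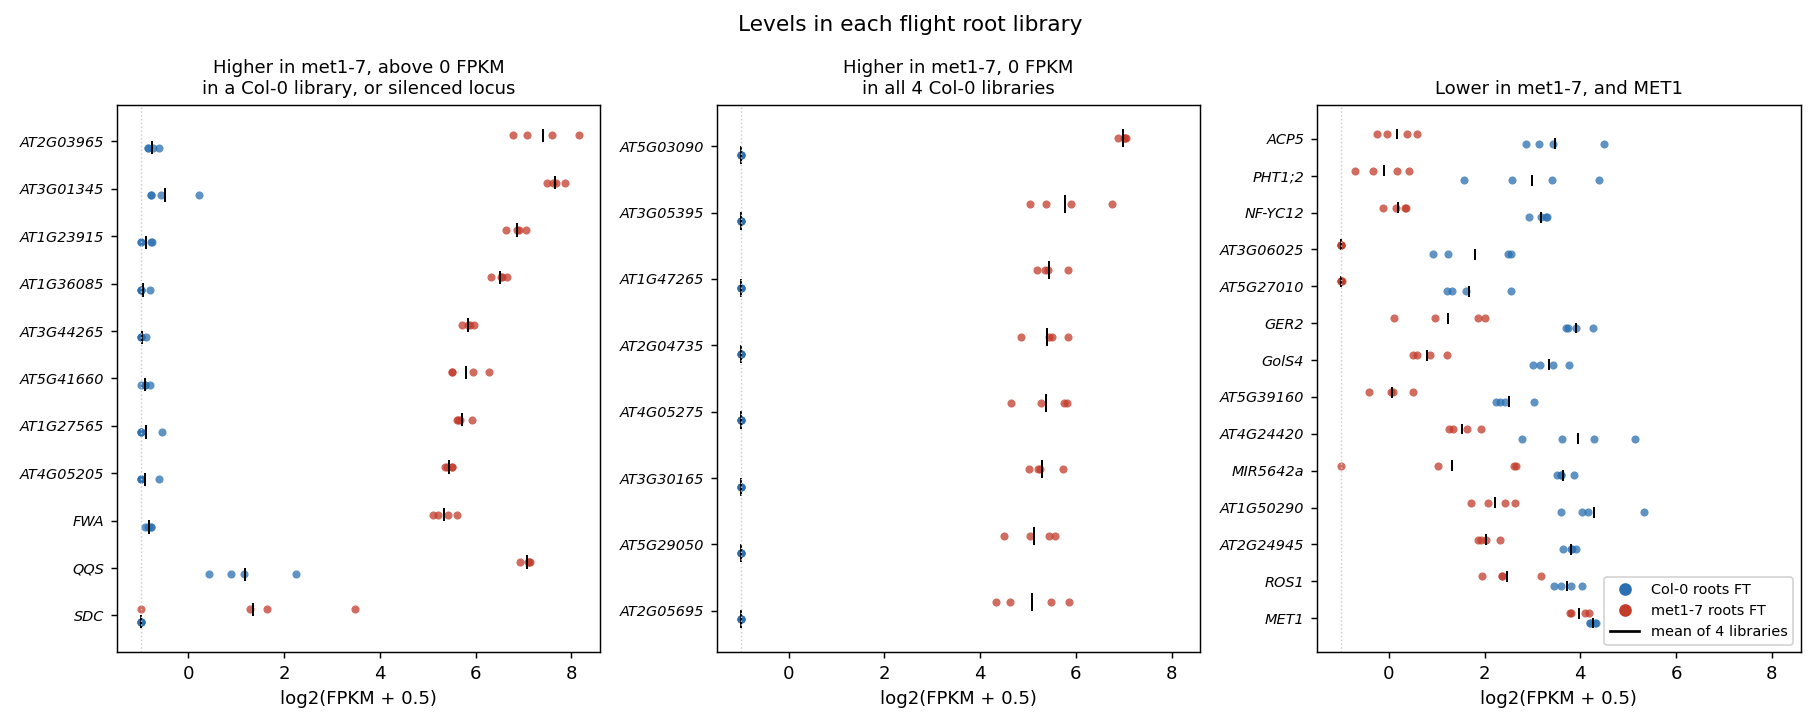
Levels in each flight root library as log2(FPKM + 0.5), 1 point per library and a line at the mean of the 4, for genes with the largest rises, genes at 0 FPKM in all 4 Col-0 libraries and lowered genes. *AT5G03090* sits at 117 to 132 FPKM in *met1-7* against 0 in Col-0, while *ACP5* drops from a mean of 11.8 to 0.658 FPKM.

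Over the whole table, without the filter, 9062 genes were listed at 0 FPKM in all 4 Col-0 flight libraries. Of these, 1068 were above 0 in at least 1 *met1-7* library, 146 in all 4, and 79 had at least 1 FPKM in all 4. In the opposite direction 8709 genes were at 0 in all 4 *met1-7* libraries, 715 of them above 0 in some Col-0 library, 27 in all 4, and 1 with at least 1 FPKM in all 4. The 103 called genes were mostly at 0 in other backgrounds too. In Col-0 GC roots 81 of 103 were at 0 in all 4 libraries, and the highest value among the rest was 1.69 FPKM. In *elp2-5* FT roots it was 78 of 103, with a highest value of 6.16 FPKM. In all 16 root libraries without *met1-7* 60 genes were at 0, and 37 were at 0 in all 32 such libraries of both organs.

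Silenced loci known from the literature were a list of 19, among them imprinted genes of the endosperm and genes that depend on promoter methylation. Only 3 of the 19 reached the level to be tested, and all 3 were raised. *FWA* had 0.08, 0.03, 0.06 and 0.08 FPKM in Col-0 and 34.0, 48.5, 42.5 and 36.6 FPKM in *met1-7*, a fitted difference of 6.17 (SE 0.13, adjusted p = 9.86e-20). *QQS* had 0.84, 1.74, 4.24 and 1.35 FPKM in Col-0 and 140, 121, 138 and 137 FPKM in *met1-7* (5.89, SE 0.67, adjusted p = 6.66e-06). Both were above every Col-0 library in all 4 *met1-7* libraries. The median difference of the 3 was 5.89, against -0.0034 over all genes tested, but *FWA* and *SDC* reached the level to be tested only through *met1-7* libraries, so the count supports nothing by itself.

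*SDC* was less uniform. It was at 0 FPKM in all 4 Col-0 libraries and at 1.94, 10.7, 2.63 and 0 FPKM in *met1-7*, so the groups overlapped at 0. Its call (adjusted p = 0.0160) rested on *met1-7* replicate 2, since without it the fitted difference fell from 2.35 to 1.64 and the adjusted p rose to 0.0691. In *met1-7* flight leaves the same gene averaged 114 FPKM, with libraries from 0.580 to 250. The locus overlaps *AT2G17695* on the opposite strand, and *FWA* likewise overlaps *AT4G25540*. Of the 16 silenced loci that were not tested, including the imprinted genes *MEA*, *FIS2*, *PHE1*, *HDG3* and *SUVH7*, the highest *met1-7* mean was 0.843 FPKM, in *AGL28*.

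Raised genes held more transposon and non-coding annotations than the genes tested. Products with a transposon-related word made up 13 of the 223 raised genes (5.83%), 0 of the 79 lowered and 143 of the 21000 tested (0.681%). Of the 13, 7 were at 0 FPKM in all Col-0 libraries. Genes that reached the level to be tested through *met1-7* libraries had to differ, so these shares are a description and support nothing by themselves. The word search is loose. One of the 13 is *CAF1a*, named after its values were seen, whose ribonuclease H-like fold belongs to an mRNA deadenylase, and it also carried the highest Col-0 value of the 13 (6.05 FPKM in 1 library). Means of the 13 in *met1-7* ran from 1.17 to 91.1 FPKM. They included *AT2G06425*, a PttA/En/Spm family transposase at 0 FPKM in Col-0 and 14.2, 23.7, 14.1 and 8.03 FPKM in *met1-7*. The FPKM table lists annotated genes, so most transposable elements themselves are not in it.

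By gene type, 41 of the 223 raised genes were long non-coding RNAs (18.4%, against 3.67% of the genes tested), and 28 of these 41 were at 0 FPKM in all Col-0 libraries. The filter limits this share in the same way, so it too is only a description. Protein-coding genes made up 74.4% of the raised, 84.8% of the lowered and 94.8% of the tested genes. The highest level of any raised non-coding RNA was that of *AT1G67105*, named after its values were seen, with 11.8, 12.3, 14.2 and 12.7 FPKM in Col-0 and 612, 820, 288 and 321 FPKM in *met1-7* (5.13, SE 0.38, adjusted p = 7.28e-09). Its lowest *met1-7* library was still over 20-fold above its highest Col-0 library. Of some large gene classes, few members were called, against 1.06% raised and 0.376% lowered of all genes tested. Protein kinases gave 3 raised and 1 lowered of 1088 tested, and pentatricopeptide repeat proteins, which process organelle RNA, 0 of 266 in either direction. NB-LRR resistance proteins gave 0 raised and 2 lowered of 111. They made up a larger share of the lowered genes (2.53%) than of the genes tested (0.529%), though by 2 genes only.

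The 5 raised microRNA loci were all copies of *MIR854* (*MIR854a* to *MIR854e*), and each was at 0 FPKM in every Col-0 library. Their *met1-7* means ran from 9.83 to 13.8 FPKM. The 5 copies are near-identical and 3 of them carry the same value in every library, so they are closer to 1 measurement than to 5. These values come from poly(A) RNA and describe precursor transcripts, not mature microRNAs. Among repeated product names counted after the values were seen, 7 of 13 tested genes named transposase were raised, 4 of 4 Ulp1 protease family genes, 7 of 10 named beta-galactosidase related and 2 of 2 Mto 1 responding down genes, the second of these being *MRD1* with a mean of 0.757 FPKM in Col-0 and 40.1 FPKM in *met1-7*. Over all genes tested 1.06% were raised. Of these raised genes 3 transposases, 1 Ulp1 protease, 3 beta-galactosidase related and 1 Mto 1 responding down gene were at 0 FPKM in all Col-0 libraries, and genes that reached the level to be tested through *met1-7* libraries had to differ, so these counts are a description and support nothing by themselves. *MRD1* overlaps the raised *AT1G07887* on the opposite strand, and their fragments cannot be told apart. Ulp1 proteases remove SUMO from proteins, and in plants such genes are also carried by Mutator-like transposons.

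Called genes, the raised more than the lowered, lay more often among loci annotated as pseudogenes than the genes tested. The share typed as pseudogenes was counted among the 20 loci nearest to each gene in TAIR10.1. In this annotation the type includes transposable element genes. The mean share was 31.3% for raised genes, 38.9% for those at 0 FPKM in Col-0 and 24.8% for the other 119. It was 17.4% for lowered genes and 5.51% for all genes tested. At least 50% of the neighbours were pseudogenes for 70 of 222 placed raised genes (31.5%) and 361 of 20771 placed tested genes (1.74%). Genes at 0 FPKM in Col-0 passed the filter only through other libraries, so these shares are a description and support nothing by themselves. The raised genes were spread over all 5 chromosomes, with 45, 38, 47, 40 and 52 on chromosomes 1 to 5. A near-identical copy elsewhere was found for 29 raised (13%) and 10 lowered genes (12.7%), against 1.40% of the genes tested, and how the counting divided fragments between such copies is uncertain. Of the raised genes, 28 overlap another tested gene and 18 overlap another raised gene, 0 of these on the same strand. Of the lowered genes, 13 overlap another tested gene.

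Some called genes were next to each other among the genes tested. By position in TAIR10.1, 8 runs of at least 3 consecutive tested genes were raised together and 24 pairs moved together, 74 genes in all. The 8 runs spanned 4752 to 332854 bases, and untested loci can lie between their genes. How many runs the filter and the spacing of tested genes would give was not tested. In order of locus name, the order by which genes were chosen to be named, there were 3 runs and 20 pairs. Of the 8 runs by position, 1 holds 4 of the near-identical *MIR854* copies, and others hold overlapping loci such as *AT2G03965* and *AT2G04655*, so neighbours are not always separate measurements. A run of 4 genes found in both orders lies on chromosome 5 at 2388225 to 2397548, a stretch of 9324 bases, with *GRP19*, *GRP20*, *AT5G07570* and *AT5G07572*. *GRP19* and *GRP20* encode oleosin-like glycine-rich proteins of the pollen coat. *GRP19* had 0.57, 0.50, 0.60 and 0.77 FPKM in Col-0 and 2.77, 6.78, 5.53 and 1.91 FPKM in *met1-7* (1.96, SE 0.40, adjusted p = 0.0037), and *GRP20* rose by 1.39, *AT5G07570* by 1.95 and *AT5G07572* by 1.52 on the same scale. All 4 were highest in *met1-7* replicate 2. The other 2 runs follow locus names only. *AT1G07333*, *AT1G07343* and *AT1G07347* are non-coding RNAs at 0 FPKM in Col-0, with *met1-7* means of 3.75, 4.92 and 5.97 FPKM, and by position only the first 2 are neighbours, within 1291 bases. *AT1G07333* lost its call without *met1-7* replicate 2 (2.23, adjusted p = 0.0605). *AT2G06305*, *AT2G06420* and *AT2G06425* span 3901546 bases, and by position only the last 2 are neighbours, within 34001 bases.

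Promoters of the raised genes at 0 FPKM in Col-0 held more CG than those of the other called genes. These promoters were also richer in G and C in general. Their median GC content was 36.8%, against 31.6% for the lowered genes and 31.2% for the genes tested. Their median number of CHG sites, where H is A, C or T, was 5, against 4 for the genes tested. Whether CG differed beyond the general base content was not tested. The median was 6 CG in the 250 bases before the start for 222 raised genes with a RefSeq promoter, 7 for the 103 at 0 FPKM in Col-0, 5 for the other 119, 5 for the lowered and 5 for all promoters. At least 10 CG were present in 25.2% of raised, 34.0% of the 103, 17.6% of the other 119, 17.7% of lowered and 13.2% of all promoters. Exact direct repeats of 20 bases or more, as in the *FWA* and *SDC* windows, were present in 12 raised promoters (5.41%), 2 lowered promoters (2.53%) and 1.94% of all. The 103 genes passed the filter only through other libraries, so these promoter counts and shares are a description and support nothing by themselves. The range among named genes was wide, from 21 CG for *AT1G27565* (reached by 0.296% of promoters) to 1 CG for *AT2G03965*, the gene with the largest rise.

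The replicates of *met1-7* did not share every raised gene. In 13 raised genes at least 1 *met1-7* flight library was at 0 FPKM while another had at least 5 FPKM. Replicate 4 was the one at 0 in 9 of the 13, and 7 of these 9 lie on chromosome 2, *SDC* among them. *AT1G59930* had 25.5, 45.3, 20.7 and 0 FPKM, and *AT3G05385*, the non-coding partner of *AT3G05395*, 29.5, 12.2, 14.8 and 0 FPKM. Both belong to the 9 at 0 in replicate 4, and *AT1G59930* has a near-identical copy, *AT1G59920*. They and the next 2 genes were chosen after their values were seen. *AT5G35069*, an uncharacterized protein, had 43.3, 52.0, 0 and 30.2 FPKM, so there replicate 3 was at 0 and the others were high. *AT2G33175* had 7.39, 12.6, 7.34 and 0 FPKM in FT and 3.57, 3.56, 0.06 and 0.11 FPKM in GC. In 9 of the 13 genes at least 1 *met1-7* GC library was at 0 as well.

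**Figure D3:**
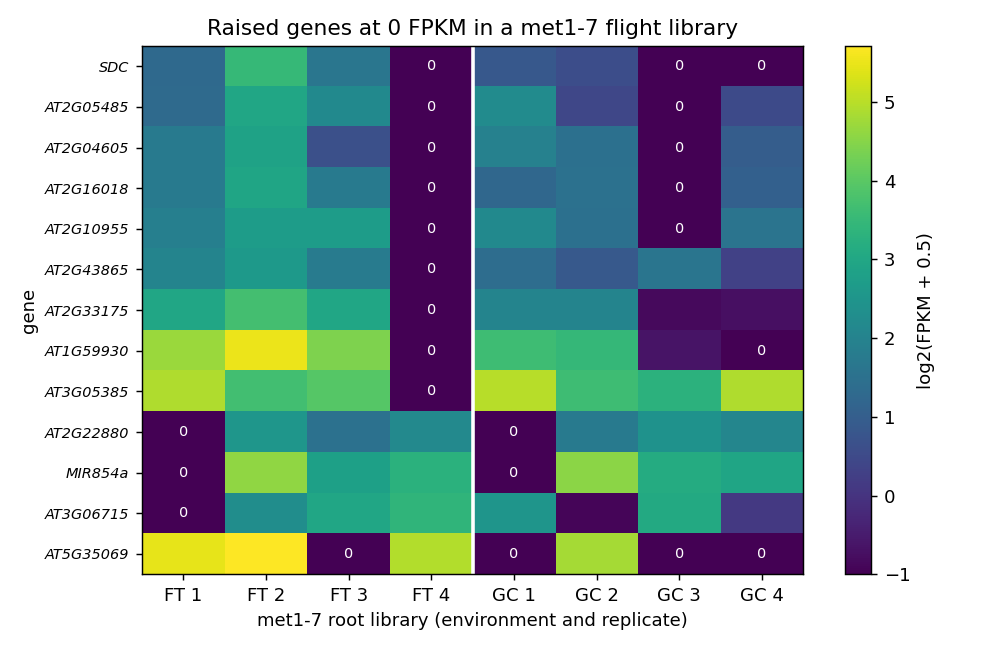
Levels of 13 raised genes in the 4 *met1-7* flight and 4 *met1-7* ground root libraries, coloured by log2(FPKM + 0.5). These genes were picked for having a flight library at 0 FPKM beside another of at least 5 FPKM, and the dark cells of FT replicate 4 take in 9 of the 13.

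The spread between libraries was wider in the called genes than in the uncalled. The median coefficient of variation over the 4 *met1-7* libraries was 0.427 for the 103 genes at 0 FPKM in Col-0, 0.284 for the other raised genes, 0.320 for the lowered genes and 0.0937 for 19822 uncalled genes with a *met1-7* mean of at least 1 FPKM. For the lowered genes it was 0.273 over the 4 Col-0 libraries, so a wide spread was not limited to *met1-7*. Levels differ between these sets, and the part of the level in the spread was not tested. Replicate 2 was the highest of the 4 in 124 of 223 raised genes and in 56 of the 103 at 0 in Col-0, and the lowest in 31 of 79 lowered genes. The same count over all genes tested was not made, so these counts do not set the called genes apart. The medians of the 103 were 4.12, 7.03, 5.61 and 4.29 FPKM in replicates 1 to 4. Without replicate 2 the number of lowered genes dropped to 50.

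Lowered genes were fewer and smaller in change, and the number depended on the scale. Quantile normalization gave 121 lowered genes and a pseudocount of 1 FPKM gave 49, while the raised genes numbered 218 and 216. The largest fall was in *ACP5*, an acyl carrier protein of plastid fatty acid synthesis, with 22.0, 8.24, 10.2 and 6.78 FPKM in Col-0 and 0.80, 0.34, 1.01 and 0.48 FPKM in *met1-7* (-3.30, SE 0.52, adjusted p = 3.23e-04). It overlaps *AT5G27210* on the opposite strand, with the same limit on telling their fragments apart. *NF-YC12*, a subunit of the CCAAT-binding nuclear factor Y, had 7.10, 8.55, 9.22 and 9.44 FPKM in Col-0 and 0.61, 0.42, 0.76 and 0.79 FPKM in *met1-7* (-2.99, SE 0.18, adjusted p = 2.15e-11). The adjacent gene *PMI15*, named after its values were seen, was lowered too, from a mean of 21.0 to 7.90 FPKM (-1.37, SE 0.10, adjusted p = 2.40e-09).

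*GolS4*, a galactinol synthase of the raffinose pathway, had 13.1, 7.58, 10.3 and 8.37 FPKM in Col-0 and 1.81, 1.00, 0.91 and 1.32 FPKM in *met1-7* (-2.55, SE 0.23, adjusted p = 7.74e-08), and overlaps *AT1G60460* on the opposite strand. Another galactinol synthase gene, *GolS3*, named after its values were seen, was among the raised genes, so the family did not move in a single direction. The germin-like genes *GER2* and *AT5G39160* fell by 2.67 and 2.44 on the log2 scale, and since they are near-identical copies of each other, fragments may have been exchanged between them. *AT4G24420*, an RNA-binding protein gene, had 34.6, 11.8, 19.0 and 6.35 FPKM in Col-0 and 2.02, 3.29, 1.88 and 2.62 FPKM in *met1-7* (-2.42, SE 0.57, adjusted p = 0.0145). Its Col-0 libraries differed more than 5-fold among themselves, and without Col-0 replicate 1 its adjusted p was 0.0571. *AT2G24945*, an uncharacterized protein, which has near-identical copies, was steadier, at 12.0 to 14.6 FPKM in Col-0 and 3.15 to 4.48 FPKM in *met1-7* (-1.77, SE 0.13, adjusted p = 1.95e-09).

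In 5 lowered genes all 4 *met1-7* libraries were listed at 0 FPKM. The non-coding *AT3G06025* had 5.33, 1.40, 5.15 and 1.86 FPKM in Col-0 (adjusted p = 0.0384), and it lost its call in 7 of the 8 fits that left out a single library, with adjusted p between 0.0579 and 0.111. The other 4, named here after their values were seen, were the histone deacetylase gene *hda10*, *AT4G12280*, *AT1G12340* and *AT5G34871*, with Col-0 means from 1.36 to 3.00 FPKM, and *hda10* and *AT1G12340* have near-identical copies. *AT5G27010*, an ARM repeat protein, came close, with 5.36, 2.01, 2.56 and 1.83 FPKM in Col-0 and 0, 0.01, 0 and 0 FPKM in *met1-7* (adjusted p = 0.0033). *AT1G50290*, an uncharacterized protein (-2.06, adjusted p = 0.0490), and the microRNA locus *MIR5642a* (-2.32, adjusted p = 0.0230) were called narrowly. *MIR5642a* has near-identical copies and overlaps *AT3G06325* on the same strand and *AT3G41762* on the opposite strand, so its value is uncertain. *AT1G50290* lost its call without any single library (adjusted p 0.0565 to 0.153), and *MIR5642a* without *met1-7* replicate 2 or 4 or Col-0 replicate 2 or 4 (0.0532 to 0.0630).

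MADS box genes, a family of transcription factors best known from flowering and also active in roots, were in both directions, with 3 raised and 4 lowered of 34 tested, against 1.06% raised and 0.376% lowered of all genes tested. Of the 3 raised, *AT1G59920* and *AT1G59930* are near-identical copies and may not be separate measurements, and 1 of the 3 was at 0 FPKM in all Col-0 libraries. Of the lowered members, named after their values were seen, *AGL44* (*ANR1*), which acts in lateral root growth on nitrate, had 4.08, 6.99, 5.91 and 4.06 FPKM in Col-0 and 2.33, 1.66, 1.58 and 1.35 FPKM in *met1-7* (-1.35, SE 0.26, adjusted p = 0.0021). *MAF4*, a relative of the flowering repressor *FLC*, had a mean of 3.24 FPKM in Col-0 and 0.422 FPKM in *met1-7* (-1.92, adjusted p = 9.48e-05). *AGL71* fell by 1.95 and *AGL17* by 1.1, and the libraries of *AGL17* overlapped between genotypes.

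Among the enzymes of DNA methylation and its removal, the demethylase *ROS1* was the 1 gene called. It had 15.8, 11.6, 10.4 and 13.5 FPKM in Col-0 and 4.67, 4.64, 3.37 and 8.50 FPKM in *met1-7* (-1.26, SE 0.20, adjusted p = 2.72e-04), without overlap. In *Arabidopsis*, *ROS1* transcription is known to depend on methylation of its promoter. Its relatives *DME* (-0.19), *DML2* (0.07) and *DML3* (0.19) did not pass the test. Of 12 tested genes for methyltransferases and CG maintenance, 0 were called, with a median of -0.19. *IBM1*, a histone H3 lysine 9 demethylase whose transcript depends on methylation within an intron, was lower in every *met1-7* library, at 9.45 to 10.6 FPKM in Col-0 and 6.07 to 7.14 FPKM in *met1-7* (-0.60, SE 0.08, adjusted p = 3.47e-05), but by less than 2-fold. *VIM3* (-0.25, adjusted p = 0.0580), *CMT2* (-0.33, 0.196), *VIM1* (-0.18, 0.215), *CMT3* (-0.21, 0.347), *DDM1* (-0.09, 0.557) and *DRM2* (0.04, 0.812) missed the threshold. Of 19 tested genes of RNA-directed DNA methylation, the small RNA route that methylates cytosines in all contexts, 0 were called, with a median of -0.02.

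The list of terpene synthases, which make volatile and defence terpenoids, had 3 lowered members of 12 tested, against 0.376% of all genes tested, and a median of -0.49. A wider class, products named for terpene or terpenoid synthesis, had 1 raised and 4 lowered of 73 tested. The raised gene, *AT3G32030*, named after its values were seen, is not in the list. *TPS06* had 3.55, 1.91, 1.25 and 0.73 FPKM in Col-0 and 0.04, 0.08, 0.06 and 0.08 FPKM in *met1-7* (-1.92, SE 0.42, adjusted p = 0.0075). *TPS28* went from a mean of 6.86 to 2.33 FPKM (-1.40, adjusted p = 0.0142) and *TPS08* from 6.19 to 2.81 FPKM (-1.02, adjusted p = 3.95e-05). Both sit near a limit of the call. *TPS28* had an adjusted p of 0.0624 without *met1-7* replicate 2 and 0.0598 without Col-0 replicate 1, and *TPS08* changed by less than 2-fold without either (-0.96 and -0.97). *TPS25*, at 86.0 ± 11.5 FPKM in Col-0 and 46.3 ± 11.4 in *met1-7* (SD, n = 4), had -0.91 (adjusted p = 0.0384), just under 2-fold, and passed without *met1-7* replicate 3 (-1.05, adjusted p = 0.0215). *TPS27*, a cineole synthase and the highest of the list at 210 FPKM in Col-0, did not pass (0.29, adjusted p = 0.584).

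**Figure D4:**
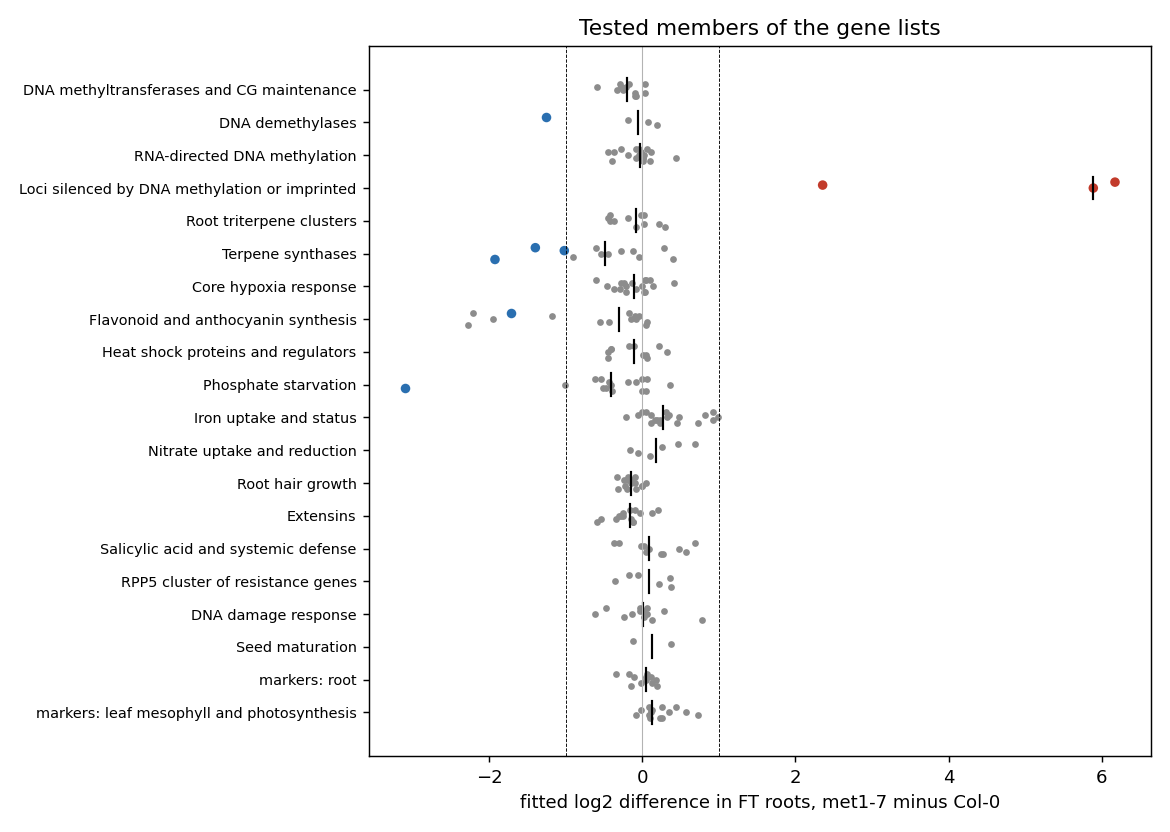
Fitted log2 difference, *met1-7* minus Col-0 roots in FT, of each tested member of the gene lists, 1 point per gene, with called genes coloured and others grey. Terpene synthases hold 3 lowered points, the silenced loci 3 raised points between 2.35 and 6.17, and most lists centre near 0.

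Of the phosphate starvation genes, 1 of 16 was called. *PHT1;2*, a phosphate transporter of the root surface, had 20.6, 5.48, 10.08 and 2.49 FPKM in Col-0 and 0.63, 0.11, 0.30 and 0.84 FPKM in *met1-7* (-3.10, SE 0.74, adjusted p = 0.0149). The call was lost without *met1-7* replicate 2 (adjusted p = 0.0589) or Col-0 replicate 1 (0.0585). Its near-identical copy *PHT1;1* had 111 to 118 FPKM in Col-0 and 131 to 160 FPKM in *met1-7* (0.37, adjusted p = 0.166). The sum of the pair was not lower in *met1-7*, and the division of fragments between the copies is uncertain.

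Of 14 tested flavonoid and anthocyanin genes, *TT19*, a glutathione transferase that carries anthocyanin to the vacuole, was called (5.20, 5.84, 19.6 and 8.99 FPKM in Col-0, 2.29, 1.83, 0.99 and 5.69 FPKM in *met1-7*, -1.71, adjusted p = 0.0477). The locus overlaps *AT5G17230* on the opposite strand. The libraries overlapped, and the call was lost without *met1-7* replicate 1, 2 or 3 or Col-0 replicate 2, 3 or 4 (adjusted p 0.0578 to 0.148). The late enzymes of the branch, named after their values were seen, had fitted differences of the same size that did not pass, -2.28 for *DFR* (adjusted p = 0.121), -2.21 for *LDOX* (0.106) and -1.95 for *UF3GT* (0.0773). The first enzyme, *CHS*, stood at 921 FPKM in Col-0 and 814 FPKM in *met1-7* (-0.18, adjusted p = 0.501). The list's median was -0.31.

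The other lists gave 0 called genes in either direction, against 1.06% raised and 0.376% lowered of all genes. These were the core hypoxia response (18 tested, median -0.10), heat shock proteins and regulators (11, -0.11), iron uptake and status (20, 0.27), nitrate uptake and reduction (6, 0.18), root hair growth (15, -0.15), extensins (15, -0.16), salicylic acid and systemic defence (11, 0.08), the *RPP5* cluster of resistance genes (6, 0.09), the DNA damage response (13, 0.01), the root triterpene clusters (11, -0.09) and seed maturation (2 of 18 tested, 0.13). The highest-expressed of them, the cell wall extensin *EXT3*, had 4243 to 6037 FPKM in Col-0 and 4757 to 5109 FPKM in *met1-7*. The thalianol cluster genes of highest level, *THAH* and *THAD*, had -0.45 (adjusted p = 0.139) and -0.37 (0.309). A list this short would hold about 0 called genes at the share of all genes, so these counts do not set the lists apart.

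On the ground the same comparison gave sets that shared many genes with the flight sets. Between *met1-7* and Col-0 GC roots 208 genes were raised (0.99% of 21000) and 144 lowered (0.686%), and 96 of the raised genes were at 0 FPKM in all 4 Col-0 GC libraries. Genes raised in both environments numbered 184, which is 82.5% of the flight list and 88.5% of the ground list. Genes lowered in both numbered 59, 74.7% of the flight list and 41.0% of the ground list. No gene was called in opposite directions. Of the 223 genes raised in FT, 222 had a fitted GC difference of the same sign, as had 78 of the 79 lowered genes. Among the raised genes, 81 were at 0 FPKM in all 4 Col-0 libraries of both environments. Their GC difference could not be negative. The same count over all genes tested was not made, so these counts are a description. The medians in FT and GC were 3.12 and 2.69 for the raised genes, chosen on the flight values, and -1.37 and -1.34 for the lowered.

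**Figure D5:**
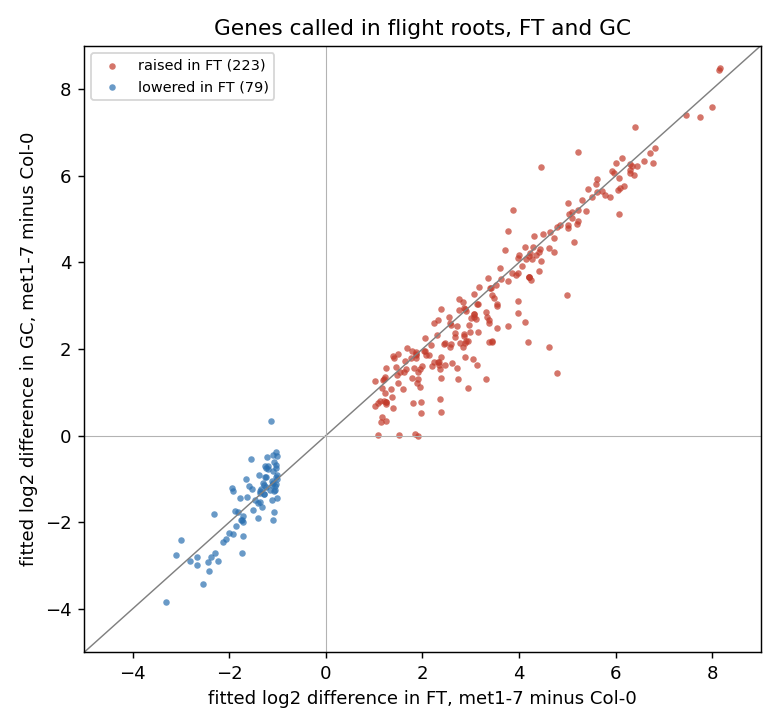
Fitted log2 difference, *met1-7* minus Col-0 roots, in GC against FT for the 302 genes called in FT, 1 point per gene. The points were chosen on the FT axis, and 222 of 223 raised and 78 of 79 lowered genes keep their sign in GC. For 81 raised genes, at 0 FPKM in all Col-0 FT and GC root libraries, the GC difference could not be negative.

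Whether the genotype difference itself differed between flight and ground was tested by the interaction in the same limma fit. It called 0 of 21000 genes (0%), with 0 at an adjusted p under 0.05, 1331 at an unadjusted p under 0.05 and a lowest adjusted p of 0.300. Leaving out Col-0 FT replicate 1 or Col-0 GC replicate 4 gave 1 called gene. Among the 223 raised genes 20 had an unadjusted interaction p under 0.05 and the lowest adjusted p was 0.510, and among the 79 lowered genes these were 7 and 0.611. A gene past the threshold in only 1 environment is therefore not shown to differ. *AT5G07572* of the pollen coat cluster, for example, was called in FT (1.52) and not in GC (0.01).

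The genes that were raised furthest had fitted differences of similar size in both environments. *FWA* had 0.01, 0.07, 0 and 0.09 FPKM in Col-0 GC and 24.8, 39.3, 26.9 and 27.4 FPKM in *met1-7* GC (5.77, adjusted p = 2.61e-19, against 6.17 in FT). *QQS* had 1.57, 3.82, 0.96 and 3.00 FPKM in Col-0 GC and 115, 109, 119 and 131 FPKM in *met1-7* GC (5.51, against 5.89 in FT). *AT2G03965* differed by 8.50 in GC and 8.16 in FT, and *AT5G03090* averaged 140 FPKM in *met1-7* GC and 126 FPKM in FT. *ROS1* had 9.97 to 14.1 FPKM in Col-0 GC and 4.72 to 6.99 FPKM in *met1-7* GC. Its GC difference of -0.95 (adjusted p = 0.0046) was just under 2-fold. *ACP5* (-3.85), *GolS4* (-3.41) and *NF-YC12* (-2.40) were lowered in GC as well.

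Flight leaves of the same genotypes, in a table normalized separately, gave 219 raised (1.1% of 19877) and 96 lowered genes (0.483%). Of the genes raised in flight roots, 163 were raised in flight leaves, 73.1% of the root list and 74.4% of the leaf list. Of the lowered genes 17 were shared, 21.5% of the root and 17.7% of the leaf list, and 0 were called in opposite directions. Of the 103 genes at 0 FPKM in Col-0 flight roots, 86 were tested in leaves and 82 of these were raised. In Col-0 flight leaves, 81 of the 103 were at 0 FPKM in all 4 libraries as well. Such genes passed the leaf filter only through other libraries, so the count of 82 is a description and supports nothing by itself. *FWA* reached 50.5 to 128 FPKM in *met1-7* leaves, against 34.0 to 48.5 in roots, a difference between tables that was not tested. *QQS* had a higher wild-type level in leaves, 7.24 to 34.0 FPKM, and rose to 132 to 170 FPKM in *met1-7* leaves (3.29, adjusted p = 1.43e-05). *ROS1* was lowered in leaves too (-1.08, adjusted p = 0.0037), while *TPS06*, *TPS28*, *TPS08* and *PHT1;2* were not tested there. Plants shared between an organ pair would make the leaf values not independent of the root values, since both organs came from the same plates.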

How the data were processed

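FPKM were used as deposited by the authors, who by the study's methods trimmed reads of poly(A), strand-specific libraries with Trimmomatic, aligned them to TAIR10 with STAR and counted genes with RSEM, and tested expected counts with edgeR. Tool versions and the RSEM strand setting were not given in the sources used here, and the expected counts were not used here. Groups came from the sample labels. Here limma 3.58.1 (R 4.3.3) was fitted to log2(FPKM + 0.5) of all 24 root libraries as 6 group means, with trend and robust variance moderation, for genes of at least 1 FPKM in at least 4 libraries. P-values were two-sided, adjusted by Benjamini-Hochberg over all genes tested, and the fit was tested on simulated data. They measure the spread between pooled replicates. Genes were called at an adjusted p under 0.05 and a change of at least 2-fold, without the study's condition that FPKM be above 0 in both groups. Leaves were fitted likewise.

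The members, lists and tests were chosen with earlier results of these data known. Named were *MET1*, the 8 largest rises above 0 FPKM in Col-0, the 8 highest at 0 FPKM, the 8 largest falls, the 6 largest rises and falls at 10 FPKM or more (all without overlap), called list members, all demethylases, tested methyltransferases and silenced loci, the 2 highest members of other lists, and genes of neighbouring runs. Of 32833 locus tags 32548 matched TAIR10.1, used for names, positions and RefSeq promoters and not the build of the files' alignment. Near-identical copies were found with BLAST 2.17.0 (at least 95% identity over 80% of the shorter transcript). Replicate numbers did not pair the samples (correlations of deviations -0.016, 0.030, -0.16 and -0.011). Python 3.11.15, pandas 2.3.3, numpy 2.4.6 and matplotlib 3.10.9 made counts and figures. Alternatives tried were a pseudocount of 0.1 or 1 FPKM, testing without a filter, median-ratio scaling, quantile normalization, a replicate block, library weights, copies left out, only the libraries compared, plain variance moderation, FPKM above 0 in both groups, and each library left out. Those for leaves were chosen after seeing the data.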

Additional observations from a re-analysis of the deposited data

Results flagged for a closer look

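In 156 groups of 4 flight root libraries with a mean of at least 1 FPKM, the highest or lowest library was checked for standing apart from the other 3 (Dixon's ratio above its 95% critical value), and 7 did (4.49%). Chance gives such a library in about 1 of 20 groups. The libraries that stood apart were the highest of *AT1G27565* in *met1-7* (59.78 FPKM), of *DML2* in *met1-7* (2.46 FPKM), of *TPS28* in Col-0 (11.34 FPKM), of *SUVH6* in Col-0 (7.97 FPKM) and of *F6'H1*, an enzyme of coumarin synthesis, in Col-0 (81.39 FPKM), and the lowest of *AGO4* in *met1-7* (21.21 FPKM) and of the nitrate reductase *NIA1* in Col-0 (198.8 FPKM). Only *AT1G27565* and *TPS28* of these were called, and *AT1G27565* kept its call in every setting in which it was tested.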

How the results depend on the processing

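Of the 46 named genes that were called, 35 kept the call in every setting they were tested in. The other 11 (*AT1G07333*, *TPS28*, *AT1G50290*, *AT2G06305*, *SDC*, *AT3G06025*, *MIR5642a*, *TPS08*, *AT4G24420*, *TT19* and *PHT1;2*) lost it in at least 1. Fitting only the libraries compared ended 5 of these calls and gave 261 called genes. Requiring FPKM above 0 in both groups gave 194 called and 120 raised genes, and by its construction 0 at 0 FPKM in Col-0. The lowered genes numbered 49 with a pseudocount of 1 FPKM and 121 with quantile normalization, and the cause was not tested. Leaving out each library in turn gave 245 to 301 called genes, 195 to 227 raised, 50 to 82 lowered, 87 to 98 at 0 FPKM in Col-0, 286 to 392 called in GC, 256 to 351 in leaves and 0 to 1 for the interaction. With the replicate number as a block 300 genes were called, 297 of them among the 302, and *AT3G06025* (adjusted p = 0.0536) and *TT19* (0.0753) lost their call. The numbers do not pair the samples, so a call lost under the block is not a weaker effect. Among uncalled named genes, small differences changed sign. *SOG1* was -0.0028 and *MBF1C* -0.0224 with quantile normalization, and *MBF1C* -0.0532 with library weights. With each library left out the differences ran from -0.0010 to 0.0350 for *SOG1*, -0.1102 to 0.0808 for *MBF1C*, -0.1080 to 0.0616 for *EXT3*, -0.0213 to 0.2381 for *CAB1*, -0.0769 to 0.2955 for *RBCS1A*, -0.0686 to 0.0103 for *AGO4*, -0.0456 to 0.1502 for *DML2*, -0.1689 to 0.0356 for *AT4G16960*, -0.2429 to 0.1088 for *SESA4* and -0.1607 to 0.0528 for *FER1*. Unknown depth limits statements on genes listed at 0 FPKM, since the lowest level that could have been detected is not known.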
